A study of Anopheles gambiae with 104 samples.

Results

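Transcript levels in heads of female Anopheles gambiae mosquitoes were compared between day and night under a light cycle. By their labels, 16 of the 104 arrays of the series belonged to this comparison, 8 from the day and 8 from the night. All females were of the Pimperena strain (S form), mated and without a blood meal, and were 7 to 9 days old when the experiment began. The labels name no genetic change in any group. The cycle gave 11 h of full light with transitions of 1 h at dawn and at dusk. Time is counted in hours of zeitgeber time (ZT), with lights off at ZT12. The late day was sampled at ZT32 and ZT56, the early day at ZT28 and ZT52, the late night at ZT20 and ZT44 and the early night at ZT16 and ZT40, with 2 arrays per time point. RNA came from a pool of 20 to 30 mosquitoes per time point. Pooled heads kept their mouthparts and antennae, so they hold brain, eye, sense organ, muscle and fat cells together. Fewer cells of a type and less RNA per cell cannot be told apart in such pools. Further groups served for comparison: heads of females kept in constant dark (DD), at circadian time (CT) 4, 8, 28 and 32 for the subjective day and 16, 20, 40 and 44 for the subjective night, and bodies from the light cycle (LD), from the same pools and ZT hours as the LD heads.

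Females of this species fly, mate and bite mainly in the dark hours and rest by day. In insects a clock of interlocked feedback loops, in which the transcription factors Clock and Cycle drive genes whose products later repress them, runs in brain neurons and in cells of the eyes and antennae. Light resets that clock each day and also acts directly on vision and behaviour, so levels in a light cycle can follow both the clock and the light itself.

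The deposited values were log2 signals made by the authors with GCRMA, 1 for each probe set, a group of short probes designed against 1 transcript. No table used here links a probe set to its gene, so results are given by probe set ID, in which the part after "Ag." names a chromosome arm. The head label could not be set against marker genes for the same reason. Of 16884 Anopheles probe sets, 7279 lay above background in these arrays, a log2 cutoff of 3.65 set by probe sets of the malaria parasite Plasmodium falciparum that share the array. Medians of the 16 arrays over all Anopheles probe sets lay between 3.01 and 3.05, below that cutoff. Over the tested probe sets they lay between 6.45 and 6.55 in replicate 1 arrays and between 6.60 and 6.72 in replicate 2 arrays. The first principal component of the tested probe sets held 37.0% of the variance and ran from 12.5 to 21.6 in the day arrays and from -20.7 to -13 in the night arrays. On the second component, with 18.0%, late day arrays lay between 14.1 and 16.6 and early day arrays between -16.9 and -15.8. Late night arrays lay between -6.86 and -5.40 on it and early night arrays between 6.10 and 7.34. Replicates separated on the third, with 15.5%. The Gapdh 3′ minus 5′ difference, a measure of RNA integrity for a glycolytic enzyme, averaged 2.48 ± 0.07 by day and 2.57 ± 0.13 by night in log2 units (SD, n = 4 time points each, adjusted p = 0.583 over 17 exact permutation tests of control values). For actin the 3′ minus 5′ difference averaged 2.09 ± 0.07 by day and 2.29 ± 0.13 by night (exact permutation test, adjusted p = 0.243). The 3 actin control probe sets lay higher at all 4 day time points than at all 4 night time points, for the 3′ one 12.74 ± 0.13 by day against 12.44 ± 0.18 by night. The exact test gave 0.0286 for each, which is the smallest two-sided p that an exact permutation test of 4 against 4 time points allows, and after adjustment over the 17 tests it was 0.162.

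Day and night differed for a large share of the head transcripts, mostly by modest amounts. Of the 7279 probe sets, 1914 (26.3%) passed an adjusted p of 0.05 (limma on time point means, Benjamini-Hochberg), with 829 (11.4%) higher and 1085 (14.9%) lower by day. Replicate 1 arrays alone gave 1260 calls, and day and night as the only groups gave 1162. The median change was 1.38-fold among those higher by day and 1.32-fold among those lower by day. At least a 2-fold change was reached by 108 of the higher and 95 of the lower ones, and at least a 4-fold change by 20 in each direction. All 8 day arrays lay above all 8 night arrays for 252 probe sets (3.46% of those tested), and all 8 night arrays lay above all 8 day arrays for 264 (3.63%). The p-values measure only the spread between these time points, which may in part be technical, since nothing in the labels tells whether both arrays at an hour were made from different pools. Of 4502 P. falciparum probe sets run through the same fit, 7 (0.155%) were called, with a median change of 1.13-fold. Of these, 6 (0.133%) were higher and 1 (0.0222%) lower by day. The parasite probe sets set the cutoff and nearly all lay below it, with a median SE of 0.025 against 0.075 for the tested Anopheles ones. Their share of calls therefore gives no false call rate for transcripts above background. In an alternative call that also asked for a 1.5-fold change, 308 remained higher and 281 lower by day. Quantile normalization of the 16 arrays gave 898 higher and 970 lower, and centring arrays on their medians gave 812 and 1148. The balance of directions thus depended in part on array scaling.

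The probe sets with the largest day minus night differences changed on a scale far above the spread between arrays. Ag.3L.1729.1_at had a lowest, median and highest log2 signal of 6.43, 7.87 and 9.23 over the 8 day arrays, and of 2.55, 2.61 and 4.38 over the 8 night arrays. It averaged 7.85 ± 1.32 by day and 2.88 ± 0.44 by night (SD, n = 4 time points each), and the day minus night difference was 4.97 on the log2 scale (SE 0.15, limma adjusted p = 2.93e-06). Since 7 of the 8 night arrays were below the background cutoff, the change is given as a bound, at least 17.2-fold with those arrays set to the cutoff. Within the day it was lower late than early (6.71 against 8.98, limma adjusted p = 0.00107).

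Ag.2L.1186.0_CDS_at rose 19.0-fold by day and held a flat level through the light hours. Its lowest, median and highest signals were 11.28, 11.37 and 11.53 on day arrays, against 6.75, 7.12 and 7.42 on night arrays, with no overlap. The means were 11.37 ± 0.06 by day and 7.12 ± 0.17 by night (SD, n = 4 time points each), a difference of 4.25 (SE 0.07, limma adjusted p = 1.60e-07). At dawn it averaged 9.53 and at dusk 7.43, so at lights off it already stood close to its night level.

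Ag.2R.2131.0_CDS_at was the mirror image, low by day and high by night. Day arrays gave a lowest, median and highest signal of 3.29, 4.00 and 4.21, against 8.94, 9.11 and 9.33 on night arrays. The difference was -5.25 (SE 0.07, limma adjusted p = 1.22e-07), from means of 3.87 ± 0.14 by day and 9.12 ± 0.07 by night (SD, n = 4 time points each). It was at least 36.2-fold lower by day, with the 3 of 8 day arrays under the cutoff set to it. It averaged 3.79 in the late and 3.95 in the early day (limma adjusted p = 0.43), and 9.13 in the late and 9.10 in the early night (adjusted p = 0.946).

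Ag.UNKN.314.0_CDS_at, whose name places it on no chromosome arm, was also low by day but changed within each phase. Its day arrays had a lowest, median and highest signal of 2.47, 3.61 and 5.08, against 7.89, 8.53 and 9.06 on night arrays. The day minus night difference was -4.85 (SE 0.07, limma adjusted p = 1.22e-07), at least 20.2-fold lower by day with the 4 of 8 day arrays under the cutoff set to it. It was lower in the late day than in the early day (2.62 ± 0.14 against 4.67 ± 0.10) and higher in the late night than in the early night (8.97 ± 0.06 against 8.03 ± 0.01; SD, n = 2 time points each), with limma adjusted p-values of 0.000134 and 0.00818.

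**Figure D1:**
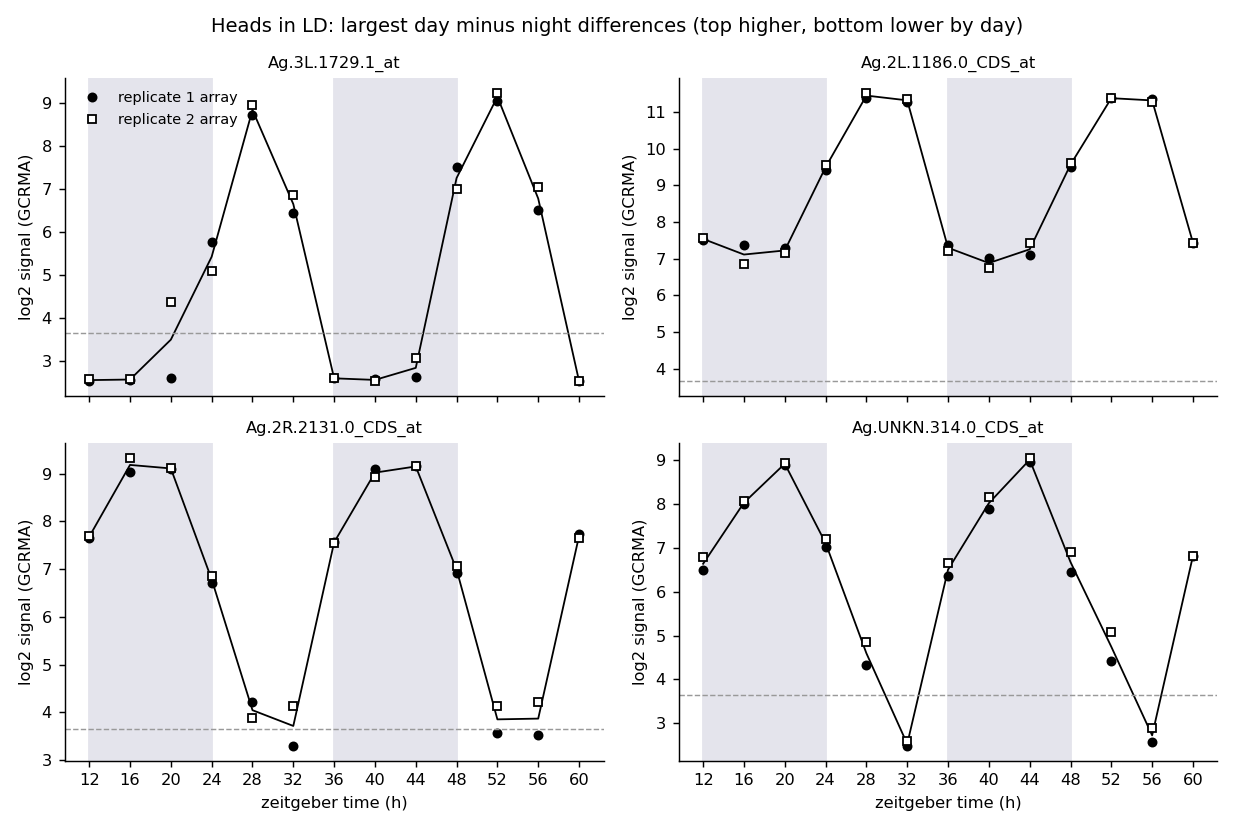
The 2 probe sets with the largest positive (top) and negative (bottom) day minus night differences, plotted as log2 GCRMA signal against zeitgeber time in hours, with filled circles for replicate 1 arrays, open squares for replicate 2 arrays, a line through the time point means, night shaded and the background cutoff of 3.65 dashed. Day and night arrays do not overlap in any of them, and both cycles show the same course.

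Separate collections on the following day gave the same picture. The first cycle (ZT16 to ZT32) and the second (ZT40 to ZT56) share no array, so probe sets were chosen by a 2-fold difference in one and read in the other, with no test. Of 106 probe sets at least 2-fold higher by day in the first cycle, 95.3% were at least 1.5-fold higher by day in the second, where 4.81% of all tested probe sets were. Of 116 at least 2-fold lower by day, 97.4% were at least 1.5-fold lower in the second cycle, against 4.63% of all. Chosen in the second cycle and read in the first, the shares were 84.2% of 133 higher and 95.4% of 109 lower by day, where all tested probe sets gave 4.25% and 4.31%.

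Dawn and dusk arrays, which the contrast did not use, showed that the change into the night and the change out of it were not mirror images. On a scale with the night mean at 0% and the day mean at 100%, the 829 probe sets higher by day stood at a median of 47.3% at dawn (ZT24 and ZT48) and 10.6% at dusk (ZT12, ZT36 and ZT60). The 1085 probe sets lower by day stood at 41.4% of the way from their night to their day level at dawn and at 71.8% at dusk. Dusk arrays were thus near the low level in both directions, night for the probe sets higher by day and day for those lower by day. The dusk mean was closer to the day than to the night mean for 30.0% of the probe sets higher by day and 61.5% of those lower by day, against 50.7% of all tested. At dawn the shares were 49.1% and 43.8%, against 47.0% of all. Dusk lay below both the day and the night mean for 3367 of the 7279 probe sets, and above both for 1819.

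Among the probe sets higher by day, the highest of the 4 phase means was in the late day for 385 and in the early day for 444. Among those lower by day, it was in the late night for 337 and in the early night for 733. Over all 7279 tested probe sets, it was in the late day for 1810 and in the early day for 1649. It was in the late night for 1369 of them and in the early night for 2451, so the early night led there too. With dawn and dusk counted as phases of their own, 145 of the probe sets lower by day were highest at dusk and 145 at dawn, while 554 kept their highest level in the early night. Of all tested, 989 were highest at dusk, 1475 at dawn and 1659 in the early night.

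**Figure D2:**
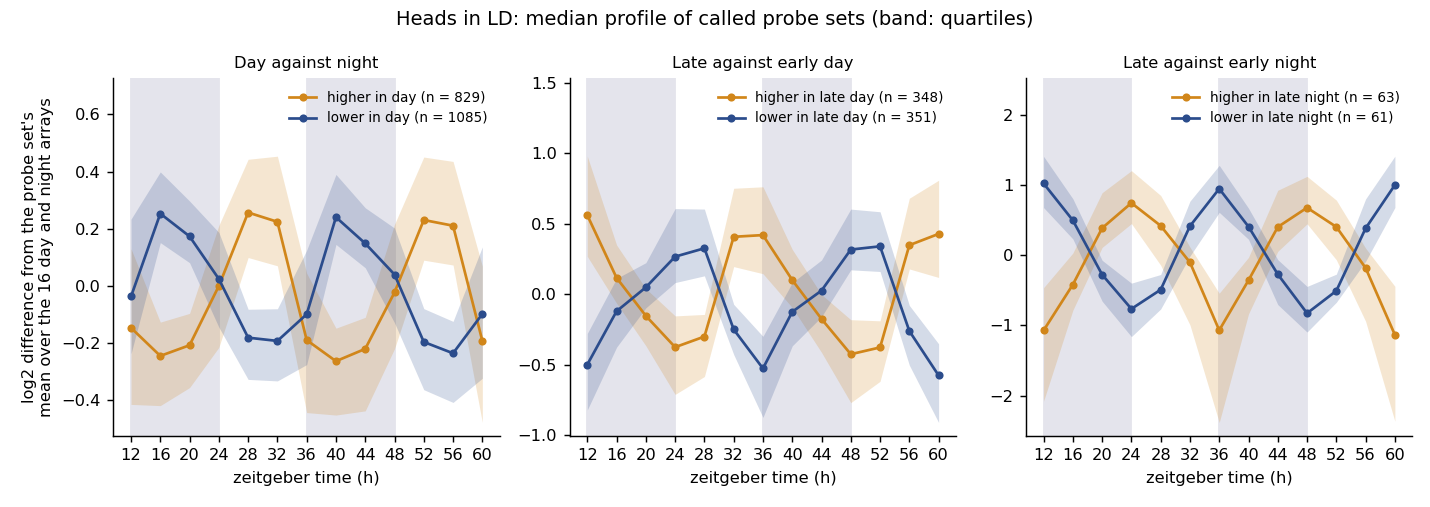
Median (line) and quartiles (band) over the called probe sets of each contrast in LD heads, as log2 difference from each probe set's mean over the 16 day and night arrays, against zeitgeber time in hours with night shaded. Probe sets higher by day stand at a median of 0.26 at ZT28 and -0.19 at ZT36, the first dusk after it, and those higher in the late night at 0.75 at dawn (ZT24) and -1.07 at dusk (ZT36). These arrays chose the groups, except those at dawn and dusk.

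Probe sets that share a chromosome arm and a cluster number in their names, called partners here, were compared for the direction of their differences. Of 295 partners of probe sets higher by day, 73.9% were called in the same direction, against 11.4% of all tested, and 98.3% had a positive difference, against 44.7% of all. Of 282 partners of those lower by day, 60.3% were called in the same direction, against 14.9% of all, and 96.5% had a negative difference, against 55.3% of all. Partners may target the same transcript, so they are not independent measurements. Between arms, the share higher by day ranged from 9.47% of 602 probe sets on X to 14.8% of 338 with no arm (UNKN), and the share lower by day from 7.99% for UNKN to 16.3% of 1625 on 2L.

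Head transcripts also changed between the early and the late day. Of the 7279 probe sets, 699 (9.60%) were called, with 348 (4.78%) higher and 351 (4.82%) lower in the late day. The median change was 1.66-fold among the higher and 1.51-fold among the lower ones, and 102 and 65 of them changed at least 2-fold. Of the P. falciparum probe sets, 4 (0.0888%) were called, all lower in the late day. At dusk, on arrays this contrast did not use, those higher in the late day exceeded both their day and their night mean in 264 of 348 cases, and those lower in the late day fell below both in 294 of 351. Over all 7279 tested probe sets, dusk lay above both means for 1819 and below both for 3367. Of 149 probe sets at least 2-fold higher in the late day of the first cycle, 73.2% were at least 1.5-fold higher in the second (4.31% of all tested), and of 84 at least 2-fold lower, 90.5% were at least 1.5-fold lower (4.33% of all). Chosen in the second cycle and read in the first, the shares were 94.6% of 112 higher (5.45% of all) and 76.5% of 98 lower (3.24% of all).

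Ag.2R.93.0_CDS_at gave log2 signals of 6.73, 6.70, 7.16 and 7.33 on the 4 late day arrays, against 2.92, 3.41, 4.18 and 4.15 on the 4 early day arrays. All late day arrays lay above all early day arrays, and 2 of the early day arrays were below background. The late minus early day difference was 3.32 (SE 0.35, limma adjusted p = 0.00199), at least 8.42-fold with those arrays at the cutoff. Its day minus night difference was -0.27 (adjusted p = 0.462), with means of 5.32 by day and 5.60 by night, so the mean over the day does not show the change inside it.

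Ag.2R.1155.0_CDS_at stood at 8.76, 9.14, 8.43 and 8.45 on late day arrays, against 5.51, 5.65, 5.30 and 5.87 on early day arrays. The groups did not overlap, and the late day was 8.64-fold higher (difference 3.11, SE 0.16, limma adjusted p = 0.000134). It averaged 8.27 at dusk, then 4.82 in the early night and 4.78 at dawn, so its high level was held from the late day to dusk.

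Ag.3R.2620.0_at gave 3.10, 2.78, 3.06 and 2.84 on late day arrays, all below the background cutoff, against 9.31, 9.63, 9.36 and 9.34 on early day arrays. The difference was -6.47 (SE 0.15, limma adjusted p = 8.96e-06), a drop of at least 54.1-fold. Ag.3L.506.0_CDS_s_at gave 3.97, 3.87, 4.28 and 4.78 in the late day, against 7.04, 7.45, 7.72 and 7.72 in the early day, a 9.60-fold drop (difference -3.26, SE 0.22, limma adjusted p = 0.000338). In this array design the ending "_s_at" marks probe sets whose probes match more than 1 transcript, so its signal may come from several genes. Late and early day arrays did not overlap in either. With each array entered on its own and the replicate number as a block, 1352 probe sets were called within the day. Leaving out ZT28, ZT32, ZT52 or ZT56 left 458, 364, 340 and 366 calls in that order, with 1 time point then standing for that part of the day, and replicate 1 arrays alone gave 397.

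**Figure D3:**
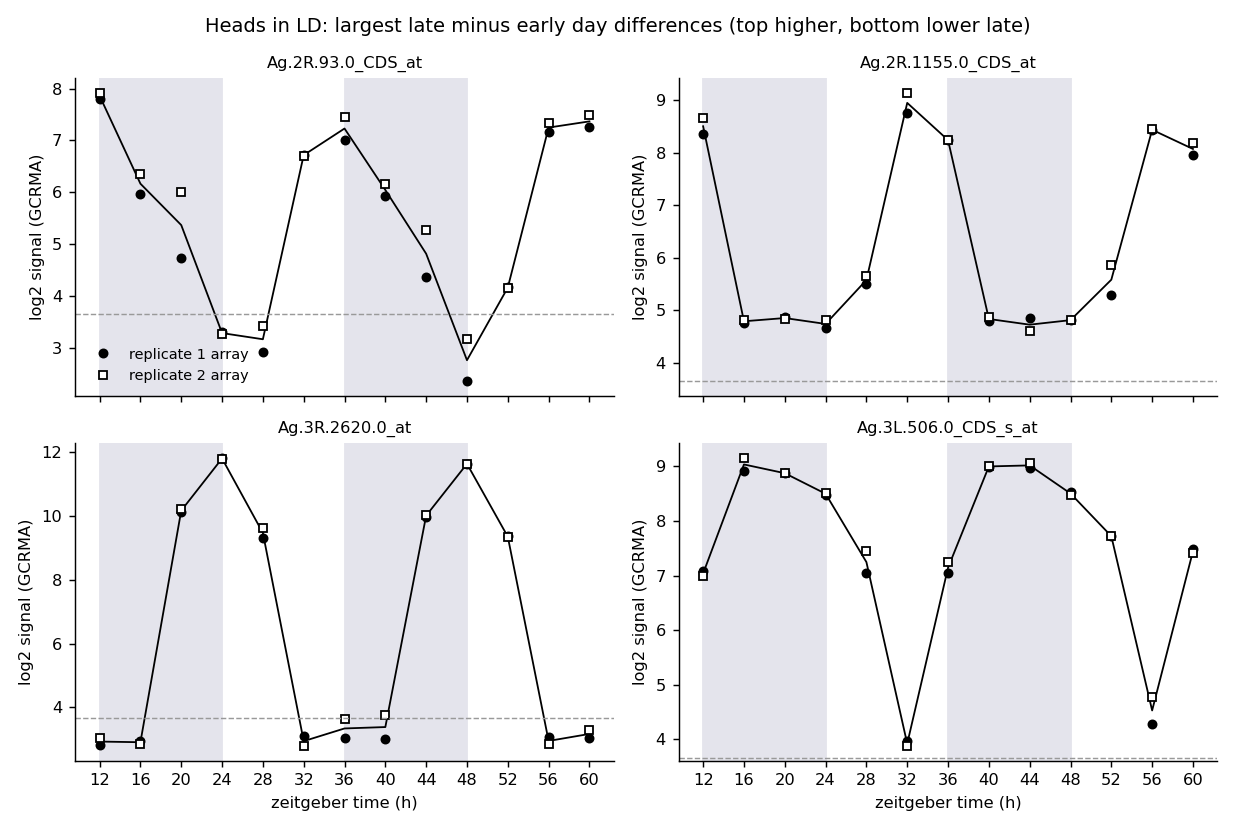
The probe sets with the largest positive (top) and negative (bottom) late minus early day differences, plotted as log2 GCRMA signal against zeitgeber time in hours with the same symbols as for the day and night plot (circles replicate 1, squares replicate 2, dashed line the cutoff of 3.65, night shaded). Each moves by more than 3 log2 units between ZT28 and ZT32 and again between ZT52 and ZT56, except Ag.2R.1155.0_CDS_at between ZT52 and ZT56, whose time point means are 5.59 and 8.44.

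Fewer probe sets passed the test within the night. Of the 7279 probe sets, 124 (1.70%) were called, 63 (0.866%) higher and 61 (0.838%) lower in the late night, with median changes of 1.82-fold and 1.74-fold. Of the P. falciparum probe sets, 5 (0.111%) were called, all higher in the late night. The standard error was the same for both contrasts (median 0.11 on the log2 scale), and the median absolute difference over all tested probe sets was 0.13 within the day and 0.11 within the night. Unadjusted p-values under 0.05 numbered 1668 within the day and 999 within the night. Whether the change within the day differed from that within the night was not tested. Of 52 probe sets at least 2-fold higher in the late night of the first cycle, 51.9% were at least 1.5-fold higher in the second (1.55% of all tested), and of 27 at least 2-fold lower, 81.5% were at least 1.5-fold lower (2.93% of all). Chosen in the second cycle and read in the first, the shares were 96.7% of 30 higher (2.51% of all) and 39.3% of 56 lower (2.01% of all), so which direction repeated more often depended on the cycle that chose.

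Ag.3R.2620.0_at had the largest difference within the night as well, at 10.13, 10.21, 9.98 and 10.04 on late night arrays, against 2.95, 2.86, 3.01 and 3.76 on early night arrays. The difference was 6.95 (SE 0.15, limma adjusted p = 5.46e-06), at least 85.2-fold, with 3 of the 4 early night arrays below background. Its transcript was therefore high from ZT20 to ZT28, with a mean of 11.72 at dawn, and near background from ZT32 to ZT40. Since it was high for part of the night and part of the day, its day minus night difference was -0.44 (adjusted p = 0.0243).

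Ag.2L.324.0_CDS_a_at gave 10.71, 10.97, 10.88 and 11.02 in the late night, against 8.71, 8.95, 8.90 and 9.10 in the early night, a 3.95-fold rise (difference 1.98, SE 0.09, limma adjusted p = 0.000332). Ag.2R.3725.0_at gave 7.56, 7.73, 7.30 and 7.59 in the late night, against 9.19, 9.34, 9.46 and 9.66 in the early night, a 3.65-fold drop (difference -1.87, SE 0.15, limma adjusted p = 0.00357). In both, late and early night arrays did not overlap, and dawn continued the direction, with means of 11.56 for Ag.2L.324.0_CDS_a_at and 5.85 for Ag.2R.3725.0_at.

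Ag.3R.1554.0_CDS_at gave 4.37, 4.51, 4.00 and 4.37 in the late night, against 6.08, 5.72, 5.79 and 5.49 in the early night, a 2.75-fold drop (difference -1.46, SE 0.19, limma adjusted p = 0.0163). Late night arrays again lay below all early night arrays. In 6 of 36 alternatives its adjusted p rose above the threshold, up to 0.12. With arrays entered one by one and the replicate number as a block, 523 probe sets were called within the night. Leaving out ZT16, ZT20, ZT40 or ZT44 left 26, 25, 42 and 31 calls in that order, replicate 2 arrays alone gave 48, replicate 1 arrays alone gave 67, and leaving out the replicate 2 array of ZT28, the replicate 1 array of ZT32 or the replicate 2 array of ZT56 gave 80, 79 and 80.

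Probe sets called within both the day and the night nearly always moved in opposite directions. These contrasts share no array, though they share 1 estimate of the spread. They had 91 called probe sets in common, 13% of the 699 and 73.4% of the 124. Of these, 48 were higher in the late day and lower in the late night, 41 were lower in the late day and higher in the late night, 2 were higher in both and 0 were lower in both. The first pattern is that of a transcript highest around dusk and the second that of one highest around dawn. Among the 63 probe sets higher in the late night, the dawn mean exceeded the dusk mean by a median of 1.97 on the log2 scale. For the 61 lower in the late night, the dawn mean was lower by a median of 1.91. Over all 7279 tested probe sets, the median dawn minus dusk difference was 0.06. How many of all tested probe sets moved in opposite directions was not counted, so the 91 have no share to stand against.

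**Figure D4:**
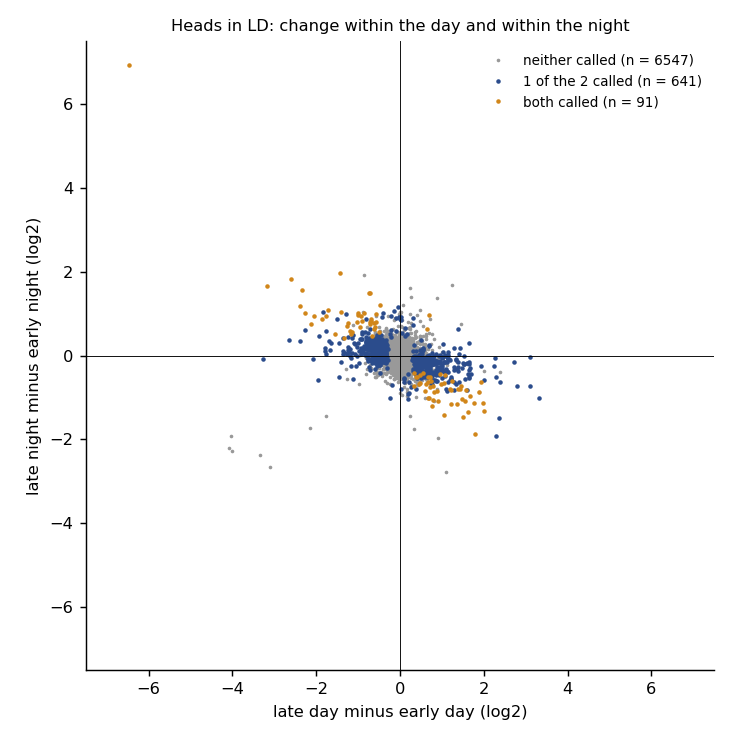
Late minus early night difference (vertical axis) against late minus early day difference (horizontal axis), both in log2 units, with 1 point for each of the 7279 probe sets, coloured by whether neither, 1 or both contrasts were called. The 91 probe sets called in both lie at the upper left and lower right, except 2 at the upper right, and Ag.3R.2620.0_at is the point at -6.47 and 6.95.

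Heads kept in constant dark were set against LD heads at the matching hours, to ask which day and night differences went with the light cycle. The difference itself passed the test for 98 of the 7279 probe sets (1.35%, limma on both arms together), with 44 (0.604%) more positive and 54 (0.742%) more negative in LD heads. Since probe sets were filtered on LD heads alone, 25 of the 98 had a mean at or below background in DD heads. Such a low mean limits the difference that can be measured there, though single DD time points could still lie above background. With the filter passed in both arms, 61 of 6941 (0.879%) were called. Of these 61, the day and night difference was larger in LD heads for 53, against 50.4% of all 6941, with median absolute differences of 1.09 in LD heads and 0.33 in DD heads on the log2 scale.

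The 829 probe sets higher by day in LD had a positive difference in DD heads in 77.4% of cases, against 42.0% of all tested probe sets, with a median of 0.18 in DD against 0.47 in LD. The 1085 lower by day had a negative one in 83.8% of cases, against 58.0% of all, with a median of -0.20 in DD against -0.40 in LD. Fitted alone, DD heads gave 14 called probe sets (0.192%), 7 in each direction, and 932 with an unadjusted p under 0.05. The time points of DD heads scattered more, with a median residual SD of 0.20, against 0.11 in LD heads. Control values also differed between these arms. The Gapdh 3′ minus 5′ difference averaged 2.48 by day and 2.57 by night in LD heads. In DD heads it averaged 4.11 in the subjective day and 5.08 in the subjective night. For dap, a spike-in control and not mosquito RNA, it averaged 1.48 by day and by night in LD heads. In DD heads the dap value was 2.77 in the subjective day and in the subjective night. The 829 and the 1085 were chosen by their call on the LD arrays, which can enlarge their LD medians. Over all 7279 probe sets the median absolute difference was 0.137 in LD heads and 0.143 in DD heads. What part this choice, the spread and the shift in control values had in the smaller DD differences of the called probe sets was not tested.

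Of the 4 probe sets named by the rule for this contrast, Ag.3L.327.0_CDS_a_at alone passed the filter in DD heads too, and the other 3 are given as levels without their test. Ag.3L.1729.1_at had means at the 4 day time points of 8.83, 6.65, 9.13 and 6.78 in LD heads, against 5.0, 4.41, 2.61 and 2.61 at CT4, CT8, CT28 and CT32 in DD heads. It stayed between 2.49 and 2.55 through the subjective night of DD heads, below background. In DD heads the first subjective day was thus above background and the second was not. Ag.3L.327.0_CDS_a_at had means of 6.78, 6.55, 6.61 and 6.47 by day and of 4.40, 4.43, 4.04 and 4.26 by night in LD heads. In DD heads the means were 5.67, 5.50, 5.32 and 4.48 in the subjective day and 4.81, 5.26, 3.83 and 5.74 in the subjective night, which overlapped (LD minus DD difference 1.99, SE 0.35, limma adjusted p = 0.0197). In 8 of 25 alternatives its adjusted p was over the threshold, up to 0.124.

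Ag.3R.383.0_CDS_a_at and Ag.3R.329.1_CDS_at were low by day in LD heads and below background at all 8 DD time points. Means of Ag.3R.383.0_CDS_a_at at the LD day time points were 8.25, 4.93, 6.70 and 4.74, and at the LD night time points 9.03, 9.90, 9.47 and 9.34. In DD heads it lay between 2.09 and 2.26 in the subjective day and between 2.10 and 2.39 in the subjective night. Means of Ag.3R.329.1_CDS_at were 3.13, 2.74, 3.09 and 2.46 by day and 6.48, 5.96, 6.10 and 5.67 by night in LD heads, so it was below background by day there too. In DD heads they were between 2.12 and 2.25 in the subjective day and between 2.19 and 2.27 in the subjective night. With no signal above background at any DD time point, a day and night difference in DD heads could not be seen for this pair.

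The count of 98 depended on single time points and on the spread used. It was 213 without CT8, 340 without CT20 and 64 without CT28. Leaving out ZT16, ZT20, ZT28, ZT32, ZT40, ZT44, ZT52 or ZT56 gave 46, 51, 54, 60, 48, 44, 42 and 44 in that order, replicate 2 arrays alone gave 58 and replicate 1 arrays alone 62. With LD minus DD differences at matched hours, chosen after the unequal spreads were seen, it was 49, and with arrays one by one and the replicate number as a block it was 583.

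LD bodies, from the same pools and hours as the heads, were also set against LD heads. Here the test was paired by time point, unlike that against DD heads, and its median SE was smaller (0.13 against 0.17 on the log2 scale). The counts of these tests are therefore not directly comparable. The difference between head and body, tested on head minus body values at each time point, passed for 576 of the 7279 probe sets (7.91%, limma), 195 (2.68%) more positive and 381 (5.23%) more negative in heads. With quantile normalization these became 287 and 314. The filter used head arrays alone, and 107 of the 576 had a mean at or below background in bodies. With the filter passed in both tissues, 413 of 6078 (6.79%) were called. Of these 413, the day and night difference was larger in heads for 275, against 50.0% of all 6078. Heads and bodies had opposite signs for 249 of the 413, a count with no share over all 6078 to set it against. Among all 7279 probe sets, 44.7% had a positive difference in heads and 60.0% in bodies, which does not give the share with opposite signs. The 829 probe sets higher by day in heads were also positive in bodies in 79.4% of cases (60.0% of all tested), and the 1085 lower by day were negative in 59.1% (40.0% of all). Fitted alone on the same probe sets, bodies gave 347 calls (4.77%), 207 (2.84%) higher and 140 (1.92%) lower by day. The Gapdh 3′ minus 5′ difference averaged 2.48 by day and 2.57 by night in heads, against 3.22 by day and 2.90 by night in bodies. Other controls did not share this rise in bodies. For actin the values were 2.09 by day and 2.29 by night in heads, against 2.15 and 2.07 in bodies. For the dap spike-in they were 1.48 by day and by night in heads, against 0.82 and 0.87 in bodies. What part these control values had in the result was not tested.

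Ag.2R.628.0_CDS_at had means of 5.57, 4.45, 5.96 and 4.83 at the day and 2.25, 3.21, 3.06 and 3.56 at the night time points in heads, with no overlap and the night below background. In bodies it stood at 10.41, 9.00, 9.55 and 8.63 by day and at 9.80, 9.82, 9.74 and 10.34 by night, far higher and with overlapping day and night values (head minus body difference 2.71, SE 0.33, limma adjusted p = 0.00398). Ag.3R.408.0_CDS_at had means of 7.20, 6.79, 6.88 and 7.03 by day and 4.46, 4.72, 4.16 and 4.90 by night in heads, while bodies lay between 2.83 and 3.0 throughout, below background. It was above background in heads only, so a day and night difference in bodies could not be seen and no test is given.

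Ag.3L.179.0_CDS_at overlapped between day and night in heads, with means of 5.63, 5.17, 4.73 and 3.45 by day and 4.68, 5.85, 4.14 and 5.03 by night, and was higher by day in bodies. Its body means were 11.07, 11.57, 11.32 and 11.58 by day, against 4.64, 6.30, 6.19 and 7.52 by night (head minus body difference -5.40, SE 0.67, limma adjusted p = 0.00446). Ag.2L.245.0_CDS_at was low by day in both tissues. Its means were 3.98, 3.87, 3.98 and 3.99 by day and 8.08, 9.28, 7.82 and 8.96 by night in heads, a 23.9-fold drop by day. In bodies they were 9.74, 10.10, 9.76 and 9.88 by day and 11.58, 10.96, 10.95 and 11.28 by night, so the drop was smaller there (head minus body difference -3.26, SE 0.17, limma adjusted p = 0.000136). With arrays entered one by one and the replicate number as a block, 1431 probe sets differed between heads and bodies. Without ZT28 there were 872, without ZT16, ZT20, ZT32, ZT40, ZT44 or ZT56 there were 218, 314, 254, 262, 242 and 247 in that order, and replicate 2 arrays alone gave 324 and replicate 1 arrays alone 265.

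**Figure D5:**
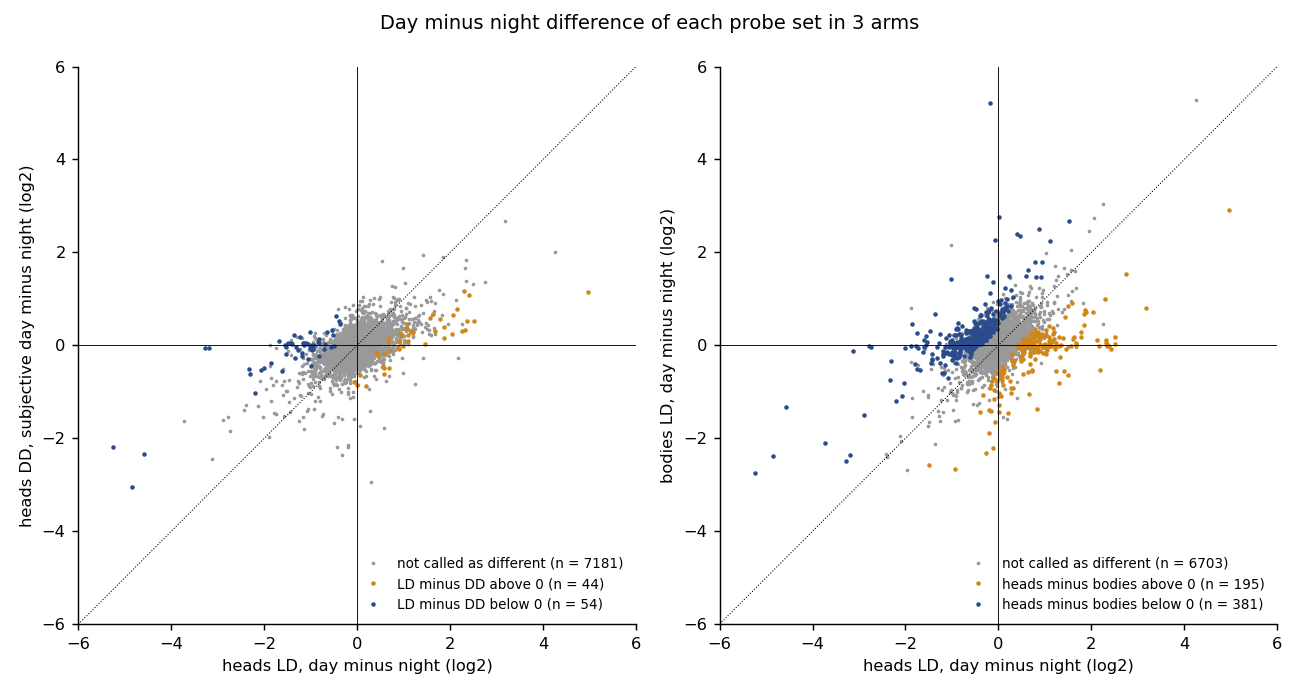
Day minus night difference in DD heads (left) and in LD bodies (right), both on the vertical axis, against that in LD heads (horizontal axis), in log2 units, with 1 point for each of the 7279 probe sets and the dotted line at equal differences. Coloured points passed the test of the difference itself (98 on the left, 576 on the right). Of these, 25 on the left and 107 on the right had a mean at or below background in the arm on the vertical axis.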

How the data were processed

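Per the labels' protocols, total RNA was labelled from the 3′ end by in vitro transcription and measured on Affymetrix arrays. The deposited log2 values, 1 per probe set and array, were computed with GCRMA by the authors, per the submitters' processing notes; the method models background from probe sequence, normalizes arrays to each other and combines the probes. The sources used here give neither its version nor the set of arrays normalized as one. The table held 22761 probe sets, 16884 named for Anopheles, 4502 for P. falciparum, 144 array controls and 1231 with other names. The reference table lists 15165 genes (assembly idAnoGambNW_F1_1), and 0 probe set names matched, so gene and marker lists could not be applied.

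Groups follow the labels. The 2 arrays of a time point were averaged. Phases with 2 time points each (early and late day, early and late night) were fitted with limma 3.58.1 in R 4.3.3 (lmFit, eBayes, Benjamini-Hochberg, threshold 0.05), which gave all contrasts in LD heads. The filter asked for a mean over the 16 arrays above the 95th percentile of means of the parasite probe sets. The comparison with DD heads used 1 joint fit, and the comparison with bodies used head minus body differences per time point, each also with the filter passed in both arms. A bound on a fold sets arrays of the dim group below the cutoff to the cutoff. Values below it cannot be told from background, and the number of arrays limits the precision. Control values were compared with exact permutation tests (70 arrangements). The fits were tested on simulated data. In that test the joint fit of LD and DD heads was allowed a larger share of false calls than the other fits. The joint fit uses a common spread for arms whose spreads differ.

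Replicate numbers paired the samples: deviations from the time point mean correlated between same-numbered arrays at 0.42 to 0.55 over all 28 pairs of time points. Named probe sets are, per contrast, the 2 largest positive and 2 largest negative differences among called ones with the same sign in each replicate and each cycle. The members, lists and tests were chosen with earlier results of these data known. Alternatives covered the unit, the block, scaling, filter, threshold and left-out samples.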

Additional observations from a re-analysis of the deposited data

Results flagged for a closer look

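At ZT32 the head mean of Ag.2L.245.0_CDS_at was 3.87 on the log2 scale, apart from the other 3 day time points at 3.98 to 3.99. The gap is small, and all 4 values lie close to the background cutoff of 3.65. Of 70 groups of 4 time points tested for such a gap, 1 had one, and chance gives about 1 in 20.

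The day and night difference in LD heads differed from that in DD heads for 98 probe sets and from that in LD bodies for 576, each by a test of the difference itself. With the filter passed in both arms these counts were 61 and 413.

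Among the 1231 probe sets whose names give no organism, which the comparisons above leave out, 168 lay above background in LD heads. Of these, 5 differed between day and night, 1 higher and 4 lower by day (limma, adjusted over the 168).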

How the results depend on the processing

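Counts are probe sets called. Requiring a 1.5-fold change gave 589 for day against night and 413 within the day. With day and night as the only groups 1162 were called. Arrays one by one gave 284 within the night, 509 for LD against DD heads and 994 for heads against bodies, and 0 P. falciparum probe sets in each contrast, in place of 7 for day against night, 4 within the day and 5 within the night, with 5, 6 and 7 at an unadjusted p under 0.05. Adding the replicate number as a block, which pairs the samples, gave 2672 for day against night, 1352 within the day, 523 within the night, 583 for LD against DD heads and 1431 for heads against bodies. With the time point as a random block there were 1080 within the day and 390 within the night. Without a filter on low values 73 were called within the night, and with the filter passed in both arms 61 differed between LD and DD heads. LD minus DD differences at matched hours, an alternative chosen after seeing the data, gave 49. Leaving out 1 time point gave 1430 to 1646 for day against night, 340 to 614 within the day, 25 to 92 within the night, 42 to 340 for LD against DD heads and 218 to 872 for heads against bodies. Single arrays left out gave 1559 to 1903, 531 to 707 and 79 to 114 for the 3 contrasts in LD heads, and 1 replicate alone gave 1260 to 1485, 397 to 466 and 48 to 67, with 58 to 62 for LD against DD heads and 265 to 324 for heads against bodies. A left-out time point or replicate leaves fewer values in the fit; other causes were not tested. The named probe sets had 20 results under 615 alternatives: 596 kept direction and call, 19 kept direction and lost the call, and 0 reversed. They were chosen as the largest called differences with the same sign in each replicate and cycle. A reversal with 1 replicate alone could therefore not occur, and the other alternatives largely reuse the values that chose them. The joint LD and DD fit shares 1 spread between arms whose spreads differ (0.11 and 0.20).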

Other observations

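Over 4 h steps of LD heads, the median absolute change across the 7279 probe sets was largest from dusk to the early night (0.19 and 0.18 on the log2 scale in the 2 cycles) and smallest from the early to the late night (0.13 in both). Steps from the late day to dusk were 0.18 and 0.17, and those from the early to the late day 0.15 and 0.16. From the early to the late day, 149 probe sets gained and 84 lost at least 2-fold in the first cycle, and 112 gained and 98 lost in the second. From the early to the late night the numbers were 52 and 27 in the first cycle and 30 and 56 in the second, so the balance of gains and losses turned round between cycles.

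The P. falciparum probe sets shifted slightly together. Of 4502, 95.4% had a positive day minus night difference, 3.40% a positive late minus early day difference and 98.3% a positive late minus early night difference, with median absolute sizes of 0.02, 0.03 and 0.03 on the log2 scale. The 7279 Anopheles probe sets had median differences of -0.02, 0.00 and -0.03 in these contrasts.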
